A study of Mus musculus with 6 samples.

Results

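The cytidine deaminase genes of the APOBEC family, Apobec1, Apobec2 and Apobec3, and the Gadd45 genes Gadd45a, Gadd45b and Gadd45g were followed in mouse embryonic stem cells in which the DNA glycosylase gene Tdg was knocked down. The 6 genes were chosen by name, and each was read from the array row (probe set) that the platform annotation gives to that gene alone, taking the row with the highest mean where there was more than 1. All 6 of 6 were measured, among 19938 named genes in all. Apobec3 had 2 such rows and each of the other 5 genes had 1.

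Expression was profiled on Affymetrix arrays that cover whole transcripts, 3 for control E14 cells and 3 for E14 cells with Tdg knockdown, E14 being a mouse embryonic stem cell line. Cells of both groups were grown on gelatin in medium with serum and LIF, the cytokine that keeps such cells undifferentiated. They received lentiviral vectors (multiplicity of infection 10) and were put under puromycin (2 ug/ml) 48 h later, so the controls carry vector and selection too; the labels do not name the vectors or the time of harvest. The labels do not state whether replicate arrays stand for separate cultures, so the p-values speak only of the spread among these 6 samples, part of which may be technical.

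APOBEC proteins are zinc-dependent enzymes or relatives of enzymes that remove the amino group of cytosine in RNA or single-stranded DNA, turning it into uracil. Deamination of 5-methylcytosine instead gives thymine opposite guanine, and that mismatch is a substrate of TDG, which is why these enzymes have been proposed, and disputed, as part of a route of DNA demethylation. GADD45 proteins are small, acidic, stress-induced proteins without enzymatic activity of their own; they activate the kinase MAP3K4 upstream of p38 and JNK, bind cell cycle proteins, and have been reported to recruit repair factors, TDG included, to methylated DNA. The values below are log2 signals, so a difference of 1 would be a doubling, and a fold change is always the knockdown mean minus the control mean.

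The deaminase genes Apobec1 and Apobec2 and the stress gene Gadd45b were the members whose knockdown arrays lay wholly apart from the controls. Apobec1 and Gadd45b were lower, by 22.3% and 25.1% of the control signal, and Apobec2 was higher, by 35.3%. Apobec3, Gadd45a and Gadd45g had overlapping groups. In a limma fit of the 2 groups over all named genes, none of the 6 passed an adjusted p of 0.05 (Benjamini-Hochberg), where 0.792% of all genes did, and 3 of the 6 had an unadjusted p under 0.05, against 12.5% of all genes (2 lower, against 7.48%, and 1 higher, against 5.03%). With the replicate number of the titles as a block, 3 of the 6 passed limma's adjusted p of 0.05, against 3.08% of all genes (2 lower, against 2.01%, and 1 higher, against 1.07%). Groups without overlap were seen for 3 of the 6 members (2 lower, 1 higher) and for 19% of all genes (11% lower, 7.98% higher). An exact two-sided permutation test over the arrays gave p = 0.1 for Apobec1, Apobec2 and Gadd45b, the smallest it can give with 3 against 3, and 0.9, 0.4 and 1 for Apobec3, Gadd45a and Gadd45g.

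The promoters of both deaminase genes that stood apart are shown because they stood apart in opposite directions, and those of all Gadd45 genes so that Gadd45b can be read beside its paralogs. Each window runs from 250 bases before an annotated transcript start to 50 after it, on the gene's strand, as given by RefSeq for GRCm38.p6. Capitals mark matches, on either strand, to the letters searched: CACGTG for the E-box, GCGGGGGCG for Egr1, TGANTCA for AP-1, TGACGTCA for the CRE, CCAAT for the box of that name and TATAAA for the TATA box, beside an NF-kB motif with 1 free position.
Apobec1, chr6:122602395-122602694, minus strand: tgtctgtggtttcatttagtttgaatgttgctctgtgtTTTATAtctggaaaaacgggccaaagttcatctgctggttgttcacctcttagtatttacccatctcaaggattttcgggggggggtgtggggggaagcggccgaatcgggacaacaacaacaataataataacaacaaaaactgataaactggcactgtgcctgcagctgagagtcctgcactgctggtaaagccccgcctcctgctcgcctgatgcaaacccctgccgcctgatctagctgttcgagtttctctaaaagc
Apobec2, chr17:48432679-48432978, minus strand: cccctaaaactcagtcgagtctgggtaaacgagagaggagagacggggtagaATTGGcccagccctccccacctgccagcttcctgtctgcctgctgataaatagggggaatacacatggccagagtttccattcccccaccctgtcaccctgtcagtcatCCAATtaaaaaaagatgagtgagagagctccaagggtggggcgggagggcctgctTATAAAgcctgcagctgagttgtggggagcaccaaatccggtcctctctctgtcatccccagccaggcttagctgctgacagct
Gadd45a, chr6:67037358-67037657, minus strand: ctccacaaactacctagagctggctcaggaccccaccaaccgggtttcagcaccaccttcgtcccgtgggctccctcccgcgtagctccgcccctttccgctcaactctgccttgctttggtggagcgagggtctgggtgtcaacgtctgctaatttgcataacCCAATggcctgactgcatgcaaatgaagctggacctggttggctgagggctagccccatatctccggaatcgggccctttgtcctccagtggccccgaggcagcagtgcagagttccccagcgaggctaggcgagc
Gadd45b, chr10:80929841-80930140, plus strand: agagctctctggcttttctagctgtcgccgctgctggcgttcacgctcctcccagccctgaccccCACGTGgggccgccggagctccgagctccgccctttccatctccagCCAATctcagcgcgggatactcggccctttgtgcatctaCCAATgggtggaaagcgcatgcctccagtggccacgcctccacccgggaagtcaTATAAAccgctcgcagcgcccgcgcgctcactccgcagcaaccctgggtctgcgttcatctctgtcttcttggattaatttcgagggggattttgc
Gadd45g, chr13:51846425-51846724, plus strand: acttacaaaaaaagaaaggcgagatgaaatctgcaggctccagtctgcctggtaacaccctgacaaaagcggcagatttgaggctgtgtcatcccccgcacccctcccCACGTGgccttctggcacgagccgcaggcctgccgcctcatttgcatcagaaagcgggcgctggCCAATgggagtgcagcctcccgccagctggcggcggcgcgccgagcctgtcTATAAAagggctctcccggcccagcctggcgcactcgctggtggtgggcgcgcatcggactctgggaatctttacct

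Gadd45b and Gadd45g had the same kinds of match, to the E-box, the CCAAT box and the TATA box. The E-box lay at -185 to -180 in Gadd45b and at -142 to -137 in Gadd45g, and 7.15% of the 32851 promoter windows in the table hold it. The TATA box lay at -46 to -41 in Gadd45b, -27 to -22 in Gadd45g and -34 to -29 in Apobec2, and on the other strand at -212 to -207 in Apobec1, against 13.6% of windows. The CCAAT box occurred 2 times each in Gadd45b and Apobec2 and 1 time each in Gadd45a and Gadd45g, against 37.4% of windows with at least 1. No match overlapped another motif's match, and none of the 5 windows held the Egr1, AP-1, CRE or NF-kB letters, which occur in 2.91%, 7.81%, 1.79% and 0.411% of windows. The number of CpG dinucleotides, the sites at which cytosine is methylated, was 24 in Gadd45b, 21 in Gadd45g, 14 in Gadd45a, 9 in Apobec1 and 5 in Apobec2, against a median of 7. These matches and counts describe the letters of the windows, and no binding or methylation was measured here.

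Before the members, the target itself: Tdg has no row of its own, and the mean of 4 rows shared with its pseudogene Tdg-ps2 was 11.12, 11.20 and 11.10 in control and 8.24, 8.16 and 7.93 in knockdown arrays, leaving 12.2% of the control signal (limma adjusted p 8.79e-05). An extraction protocol in the labels speaks of Kdm2b knockdown, whereas titles and design name Tdg; Kdm2b, a histone demethylase gene, differed by 0.10 (SE 0.08, adjusted p 0.694). The 6 arrays correlated at 0.975 to 0.996. Knockdown replicate 3 lay apart on the first principal component (58.6% of the variance), at 31.0 where the other 5 arrays ran from -17.5 to 5.17, so the results on Apobec1, Apobec2 and Gadd45b are also given without it. The 12 embryonic stem cell markers, among them Pou5f1, Sox2 and Nanog, averaged 11.8 to 11.9 in both groups, and the 10 fibroblast markers averaged 6.76 to 6.96 in control and 6.75 to 7.07 in knockdown arrays, where array medians over all rows were 7.41 to 7.48.

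Apobec1 encodes the enzyme that edits a cytosine in apolipoprotein B mRNA, chiefly in the intestine and, in mice, the liver, and it can also act on DNA. Its signal was 9.15, 9.06 and 9.07 in the control arrays and 8.75, 8.81 and 8.63 in the knockdown arrays. Every knockdown array was below every control array, with a gap of 0.25 between the groups, wider than the range within the controls (0.09) or the knockdown arrays (0.18). The means were 9.09 ± 0.05 and 8.73 ± 0.09 (SD, n = 3 each), a log2 fold change of -0.36 (SE 0.07, 95% interval -0.53 to -0.20). This did not pass in limma (adjusted p 0.0828) and did with the replicate block (adjusted p 0.0422). Without knockdown replicate 3 the change was -0.31 (adjusted p 0.0724). In each pair of arrays with the same number Apobec1 was lower in the knockdown, with differences of -0.40, -0.25 and -0.44. Among all named genes, 394 (1.98%) were lower by as much or more.

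Because Apobec1 is known from gut and liver, 10 markers of enterocytes and hepatocytes were read beside it. None passed in limma, 1 had an unadjusted p under 0.05 (against 12.5% of all genes), 8 lay above 0 and the median was 0.07. Their mean level was 5.98 to 6.13 in control and 5.96 to 6.26 in knockdown arrays. Mttp and Apob had groups without overlap, 1 lower and 1 higher. Mttp, which loads lipid onto apolipoprotein B, differed by -0.20 without overlap (SE 0.07, adjusted p 0.273), and Vil1, encoding villin, by 0.16 (SE 0.09, adjusted p 0.555). Apob itself, named after its value was seen, differed by 0.06, also without overlap (SE 0.06, adjusted p 0.769). These were the 2 of the 10 without overlap, against 19% of all genes. Of 10 markers of primitive and visceral endoderm none passed in limma, and 2 had an unadjusted p under 0.05, against 12.5% of all genes. In this list 5 lay above 0 and 5 below, and the mean level was 7.76 to 7.90 in control and 7.75 to 7.90 in knockdown arrays. Groups did not overlap for 3 of the 10 (2 lower, 1 higher), against 19% of all genes (11% lower, 7.98% higher). Hnf4a, a transcription factor gene of endoderm and liver, was lower without overlap (-0.46, SE 0.08, adjusted p 0.0673, blocked 0.0360), as was the endocytic adaptor gene Dab2 (-0.30, SE 0.09, adjusted p 0.196). Foxa2, named after its value was seen, was higher without overlap (0.15, SE 0.07, adjusted p 0.460). The part of these cell types in the Apobec1 values was not tested.

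Apobec2 encodes a family member found mainly in heart and skeletal muscle, for which a deaminase activity is not established. It was the only member whose signal was higher in every knockdown array. Controls gave 7.87, 7.97 and 7.85 and knockdown arrays 8.27, 8.48 and 8.25, a gap of 0.28 between groups that ranged over 0.12 and 0.23. The means were 7.90 ± 0.06 and 8.33 ± 0.13 (SD, n = 3 each), and the log2 fold change was 0.44 (SE 0.08, 95% interval 0.24 to 0.63). Apobec2 missed the threshold in limma (adjusted p 0.0759) and passed with the replicate block (adjusted p 0.0259). Without knockdown replicate 3 it was 0.48 (adjusted p 0.05, above the threshold before rounding). Same-numbered pairs differed by 0.40, 0.51 and 0.40, the narrowest spread relative to the change among the 3 members that stood apart. An increase as large or larger was found in 89 of the named genes (0.446%).

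**Figure D1:**
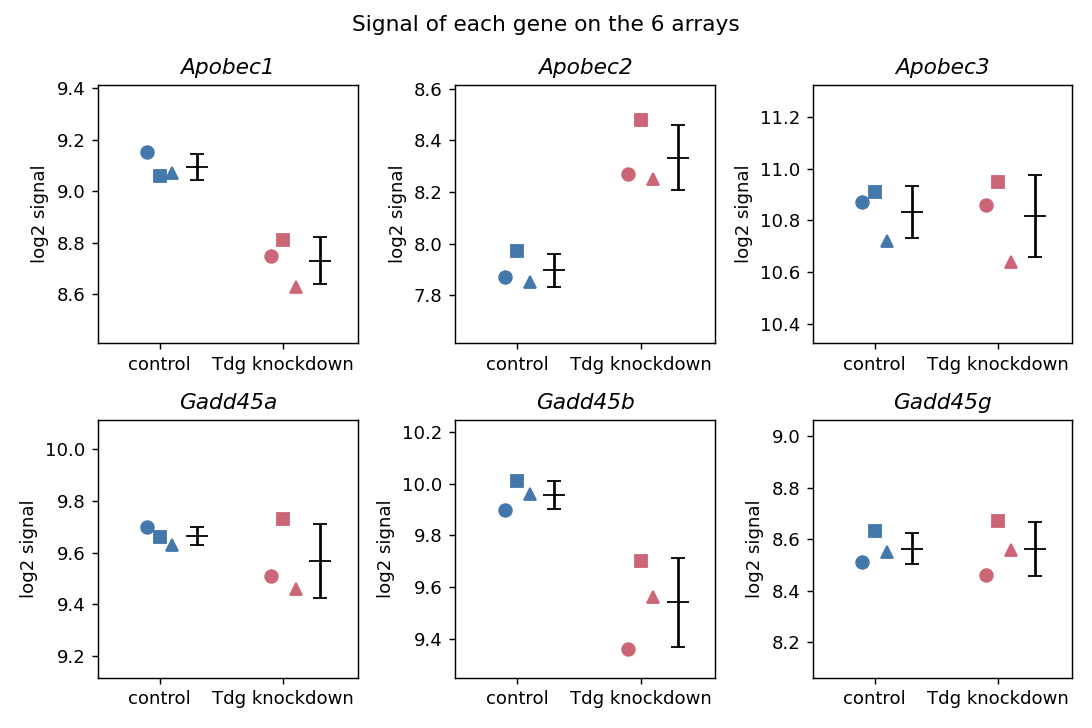
Log2 signal (vertical axis, a span of 1 in each panel) of the 6 genes in control (blue) and Tdg knockdown (red) arrays; circles, squares and triangles are the arrays numbered 1, 2 and 3, and bars are the mean ± SD of n = 3. Knockdown points lie below the controls for Apobec1 and Gadd45b and above them for Apobec2, and the groups overlap in the other panels.

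Because Apobec2 is known from muscle, muscle genes were read beside it. Of 10 muscle markers measured, none passed in limma, and 2 had an unadjusted p under 0.05, against 12.5% of all genes. Of the 10, 6 lay above 0 and 4 below, with a median of 0.06 and a highest value of 0.24. The mean level of the list was 7.36 to 7.51 in control and 7.30 to 7.58 in knockdown arrays. The actin genes Acta1 (-0.39, adjusted p 0.114, blocked 0.0368) and Actc1 (-0.38, adjusted p 0.0699, blocked 0.0292) had the smallest p, and both were lower. Myod1, the myogenic master regulator, differed by -0.04 (SE 0.09), named after its value was seen. The part of muscle cells in the Apobec2 values was not tested.

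Apobec3, a single gene in the mouse, encodes a restriction factor that acts against retroviruses and retroelements and is best known from lymphoid cells. Its brighter row read 10.87, 10.91 and 10.72 in control and 10.86, 10.95 and 10.64 in knockdown arrays, so the groups overlapped throughout. The log2 fold change was -0.02 (SE 0.10, adjusted p 0.967), with an interval of -0.25 to 0.21 that includes changes of either sign smaller than those of Apobec1 and Apobec2. The second row, which rests on other transcript records of the gene, gave 8.19, 8.06 and 8.02 in control and 8.18, 8.07 and 8.27 in knockdown arrays, a difference of 0.08 (SE 0.08, adjusted p 0.887 over all rows). Both rows were thus within the spread of the arrays, and they differed in sign. Of 8 lymphoid markers measured 8 lay above 0, with a median of 0.14 and none past limma's threshold (1 at an unadjusted p under 0.05, against 12.5% of all genes). Their mean level was 6.41 to 6.58 in control and 6.56 to 6.79 in knockdown arrays. Whether they have a part in the Apobec3 values was not tested.

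Gadd45b, a gene induced by TGF-beta, NF-kB and stress signals, was lower in all 3 knockdown arrays. Controls read 9.90, 10.01 and 9.96, and knockdown arrays 9.36, 9.70 and 9.56. The knockdown arrays spread over 0.34 and the controls over 0.11, and the nearest arrays of the 2 groups were 0.20 apart. Means of 9.96 ± 0.06 and 9.54 ± 0.17 (SD, n = 3 each) gave a log2 fold change of -0.42 (SE 0.10, 95% interval -0.64 to -0.19). In limma the adjusted p was 0.117, and with the replicate block it was 0.0368. Without knockdown replicate 3 the change was -0.43 (adjusted p 0.114). Same-numbered pairs differed by -0.54, -0.31 and -0.40. Of all named genes, 261 (1.31%) were lower by as much or more.

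Gadd45a, the family member under direct control of p53 and the one most often studied in demethylation, read 9.70, 9.66 and 9.63 in control and 9.51, 9.73 and 9.46 in knockdown arrays. Knockdown replicates 1 and 3 lay below the controls and knockdown replicate 2 above them. The log2 fold change was -0.10 (SE 0.08, 95% interval -0.30 to 0.10, adjusted p 0.731). Gadd45g, known from neural development and male sex determination, read 8.51, 8.63 and 8.55 in control and 8.46, 8.67 and 8.56 in knockdown arrays. Its group means were equal at 8.56, and the interval of the difference reached from -0.18 to 0.18, which leaves out a change of the size measured for Gadd45b.

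**Figure D2:**
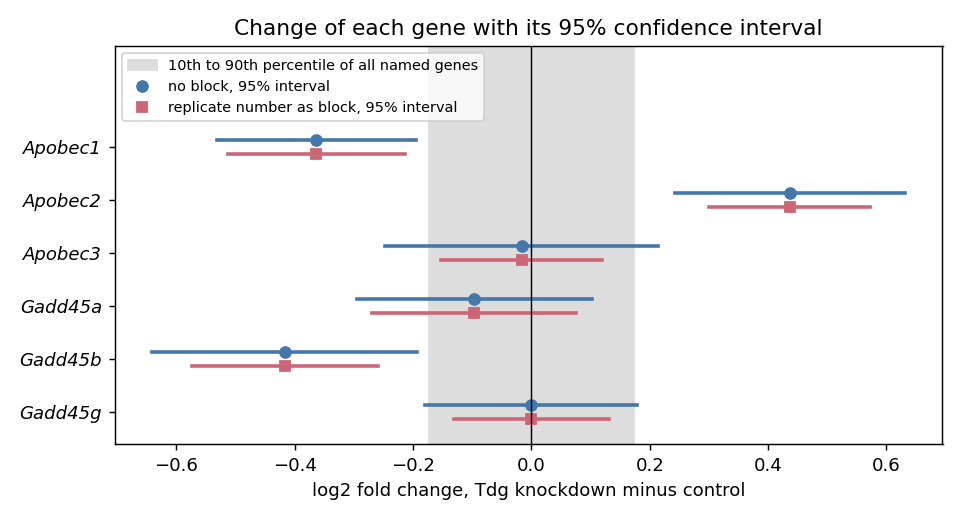
Log2 fold change (knockdown minus control, horizontal axis) of the 6 genes with limma's 95% confidence interval, without a block (blue circles) and with the replicate number as a block (red squares); the grey band holds the 10th to 90th percentile of all named genes, -0.17 to 0.17. The intervals of Apobec1, Apobec2 and Gadd45b leave out 0 and those of the other 3 genes include it.

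Whether members of a family responded differently was tested on the difference of the 2 genes' log2 signals within each array, for 6 pairs. The exact two-sided permutation test cannot go below 0.1 with 3 arrays against 3, or below 0.12 after adjustment over these pairs as they came out, so no pair could pass. The difference Apobec1 minus Apobec2 differed by -0.80 between the groups, from 1.28, 1.09 and 1.22 in control to 0.48, 0.33 and 0.38 in knockdown arrays. In the Gadd45 genes, Gadd45b minus Gadd45g was 1.39, 1.38 and 1.41 in control and 0.90, 1.03 and 1.00 in knockdown arrays, a difference of -0.42. The controls lay within 0.03 of each other on this measure. Gadd45a minus Gadd45b went from -0.20, -0.35 and -0.33 to 0.15, 0.03 and -0.10, a difference of 0.32. These pairs, and those of Apobec3 with Apobec1 (-0.35, Apobec1 minus Apobec3) and Apobec2 (0.45, Apobec2 minus Apobec3), had groups that did not overlap and an exact permutation p of 0.1 (adjusted 0.12). Gadd45a and Gadd45g overlapped (-0.10, exact permutation p 0.4, adjusted 0.4).

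Among the other deaminases of DNA, RNA and nucleosides, 14 of 16 listed genes were measured and none passed in limma, with or without the block. Without it 3 of the 14 had an unadjusted p under 0.05, against 12.5% of all genes. The list's median log2 fold change was 0.00, where that of all genes was 0.02. The smallest p belonged to the tRNA adenosine deaminase gene Adat2 (-0.24, SE 0.06, adjusted p 0.161) and the AMP deaminase gene Ampd3 (0.23, SE 0.07, adjusted p 0.263). Apobec4, a further family member of unknown activity, differed by -0.09 (SE 0.07, adjusted p 0.660), named here after its value was seen. Groups without overlap were found for 4 of the 14 (2 higher, 2 lower), where 19% of all genes had them (7.98% higher, 11% lower).

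Of 8 genes for RNA-binding proteins and co-chaperones reported to work with or bind APOBEC1, Rbm47 had the smallest p. RBM47 is a cofactor of C-to-U editing, and its gene read 9.71, 9.75 and 9.65 in control and 9.38, 9.49 and 9.15 in knockdown arrays, a log2 fold change of -0.36 (SE 0.10). It did not pass in limma (adjusted p 0.160) and did narrowly with the replicate block (adjusted p 0.0493). A1cf, the complementation factor of the same complex, differed by 0.01 (SE 0.15), named after its value was seen. Its signal was low, with means of 3.83 in control and 3.84 in knockdown arrays. Other members of the list ran up to 0.14, the value of Syncrip (SE 0.07, adjusted p 0.458). The list's median was 0.03 and 1 of 8 genes had an unadjusted p under 0.05, against 12.5% of all genes.

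Restriction factors other than Apobec3 gave no call in limma either, with 11 measured and a median of 0.05. Of these, 1 had an unadjusted p under 0.05, against 12.5% of all genes. Bst2, encoding tetherin, differed by -0.22 (SE 0.09, adjusted p 0.393), and Ifitm1, an interferon-induced membrane protein gene, by -0.12 (SE 0.06, adjusted p 0.472). The glycosylases that act on deaminated or oxidised cytosine, with the AP endonuclease Apex1, had a median of -0.08 over 7 genes apart from Tdg. None of these 7 passed in limma, and 3 had an unadjusted p under 0.05, against 12.5% of all genes. Neil1, a glycosylase for oxidised bases, differed by -0.20 (SE 0.08, adjusted p 0.373), and Apex1 by 0.24 (SE 0.10, adjusted p 0.376).

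The partners reported for GADD45A in demethylation and excision repair showed little difference. All 12 listed genes were measured, the median was 0.01 and none passed in limma (1 at an unadjusted p under 0.05, against 12.5% of all genes). Ing1, a reader of histone methylation reported to guide GADD45A, had the smallest p (0.18, SE 0.07, adjusted p 0.328), followed by the damage-binding factor gene Xpa (-0.14, SE 0.08, adjusted p 0.572). Of 5 listed cell cycle partners 3 were measured, and Ccnb1 and Cdkn1a were not. Pcna differed by 0.07 (SE 0.06) and Gadd45gip1 by 0.08 (SE 0.08), and none of the 3 passed in limma or had an unadjusted p under 0.05.

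The kinase genes from Map3k4, whose product GADD45 proteins activate, down to p38 and JNK had a lower median than all genes. It was -0.12 against 0.02 over 11 measured genes, of which 10 lay below 0 (9 after quantile normalization). None passed in limma. An unadjusted p under 0.05 was found for 4, against 12.5% of all genes, and 1 passed with the block, against 3.08%. Groups did not overlap for 4 of the 11, each lower in the knockdown, against 11% of all genes lower in that way. Mapk12, encoding p38 gamma, read 9.61, 9.69 and 9.74 in control and 9.28, 9.33 and 9.17 in knockdown arrays (-0.42, SE 0.07, adjusted p 0.0573, blocked 0.0382). Mapk13, encoding p38 delta, differed by -0.34 (SE 0.09, adjusted p 0.159, blocked 0.0600). The other 2 without overlap, named after their values were seen, were Map3k4, the direct target of GADD45 proteins (-0.17, SE 0.07, adjusted p 0.398), and Map2k4, a JNK-activating kinase gene (-0.25, SE 0.08, adjusted p 0.277). Mapk14, encoding p38 alpha and also named after its value was seen, was the 1 gene above 0 (0.04, SE 0.06). Knockdown replicate 3 had the lowest list mean, 9.51, where both other knockdown arrays had 9.64 and the controls lay at 9.74 to 9.77.

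**Figure D3:**
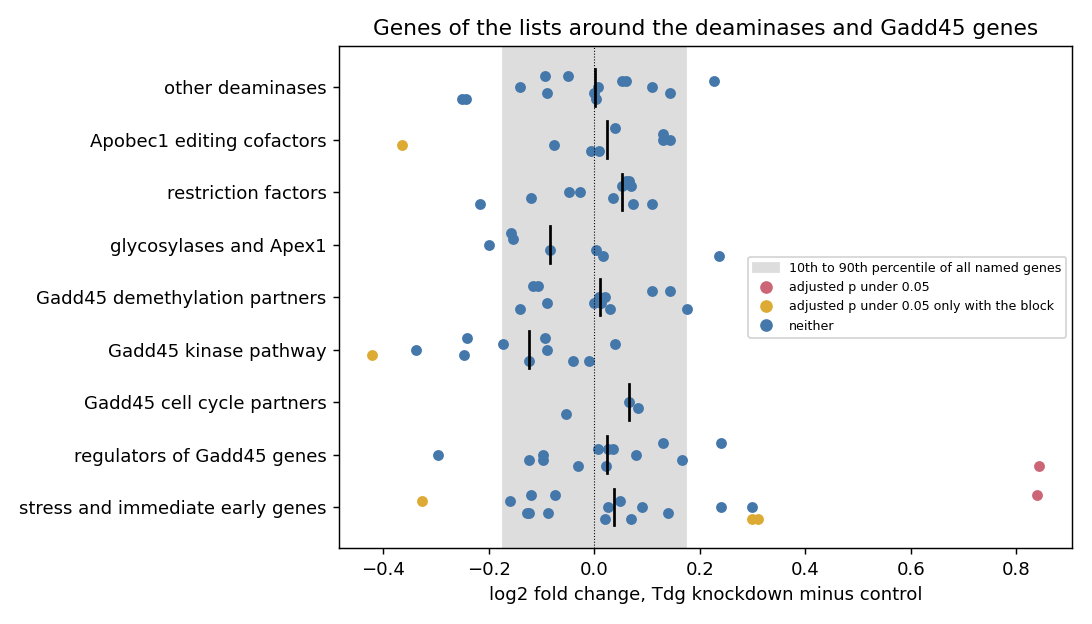
Log2 fold change (knockdown minus control, horizontal axis) of every measured gene of 9 lists around the members, with black bars at list medians and the grey band at the 10th to 90th percentile of all named genes; vertical offsets only separate points. Egr1 and Fos, at 0.84 each, are the 2 genes past an adjusted p of 0.05 (red), and most other points lie within or near the band.

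Upstream of the Gadd45 genes, 14 of 16 listed transcription factor genes were measured, with a median of 0.03. Trp53, encoding p53, and the NF-kB gene Nfkb1 were not among those measured. Egr1, an immediate early zinc finger factor, rose, from 9.97, 9.94 and 10.08 to 10.81, 10.85 and 10.86 (0.84, SE 0.06, adjusted p 0.00803), and the call was lost when the first or the second control array (adjusted p 0.0631 and 0.0842), or the first or the second knockdown array (0.0646 and 0.0589), was left out. No other gene of the list passed. Smad3, a mediator of TGF-beta signals, differed by -0.30 (SE 0.06, adjusted p 0.0963, blocked 0.0502), read here after its value was seen. In the list of stress and immediate early genes Fos rose (0.84, SE 0.12, adjusted p 0.0360), a call lost with all rows tested (adjusted p 0.120) and when any of those 4 arrays was left out (0.176, 0.219, 0.159 and 0.114 in the same order). In this list 6 of 18 had an unadjusted p under 0.05, against 12.5% of all genes. With the replicate block 3 of the 18 passed as higher and 1 as lower, against 1.07% and 2.01% of all genes. Beside Fos, those named after their values were seen were Fosb (0.30, blocked adjusted p 0.0441), Ppp1r15a, the stress phosphatase subunit also called GADD34 (0.31, blocked 0.0423), and the early response gene Ier3 (-0.33, blocked 0.0393). Ddit3, also called GADD153 and likewise named after its value was seen, differed by 0.24 (SE 0.10, adjusted p 0.394). Gadd45b at -0.42 had the opposite sign to both of these other genes of the GADD name, and the same sign as Ier3. The groups of Ddit3 overlapped, and of the 18 listed genes 11 lay above 0 and 7 below.

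Genes beside the members on the chromosome were read from the gene order of GRCm38.p6, 10 measured genes for each member. Apobec1 lies next to Gdf3, Dppa3 and Nanog, genes of pluripotent cells, and these differed by 0.10 (SE 0.06), 0.04 (SE 0.10) and 0.02 (SE 0.06). The glucose transporter gene Slc2a3 beyond them differed by -0.11 (SE 0.06), Foxj2 by -0.07 (SE 0.06) and Necap1, further out, by 0.07 (SE 0.06). On the other side Mfap5 differed by -0.10 (SE 0.07), and the 10 neighbours ran from -0.11 to 0.10 with none past limma's threshold (lowest adjusted p 0.556). Around Gadd45b the 10 neighbours ran from -0.09 to 0.12, with Lmnb2 at 0.02 (SE 0.07) and Gng7 at 0.03 (SE 0.07) on either side. Around Apobec2, Oard1 (-0.05, SE 0.10) and Tspo2 (-0.07, SE 0.12) lay closest, and Trem2, 4 places away, was at 0.33 (adjusted p 0.219, blocked 0.0395).

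With the block 1 of 10 neighbours passed for each of Apobec2, where it was Trem2, Gadd45a, Apobec3 and Gadd45g, and none for Apobec1 and Gadd45b, against 3.08% of all genes; the 4 were named for that after their values were seen. Next to Gadd45a, the G protein subunit gene Gng12 differed by -0.42 (SE 0.07, adjusted p 0.0652, blocked 0.0355), while A430010J10Rik on the other side was at 0.02 (SE 0.09). Pdgfb, a growth factor gene beside Cbx7 near Apobec3, differed by -0.42 (SE 0.08, adjusted p 0.0828, blocked 0.0339), with Cbx7 itself at -0.05 (SE 0.06) and D730005E14Rik at -0.02 (SE 0.09). Near Gadd45g, Auh was at -0.41 (SE 0.13, adjusted p 0.227, blocked 0.0368), with Sema4d at 0.00 (SE 0.07) and Diras2 at 0.02 (SE 0.08) closest. None of these neighbours passed without the block.

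**Figure D4:**
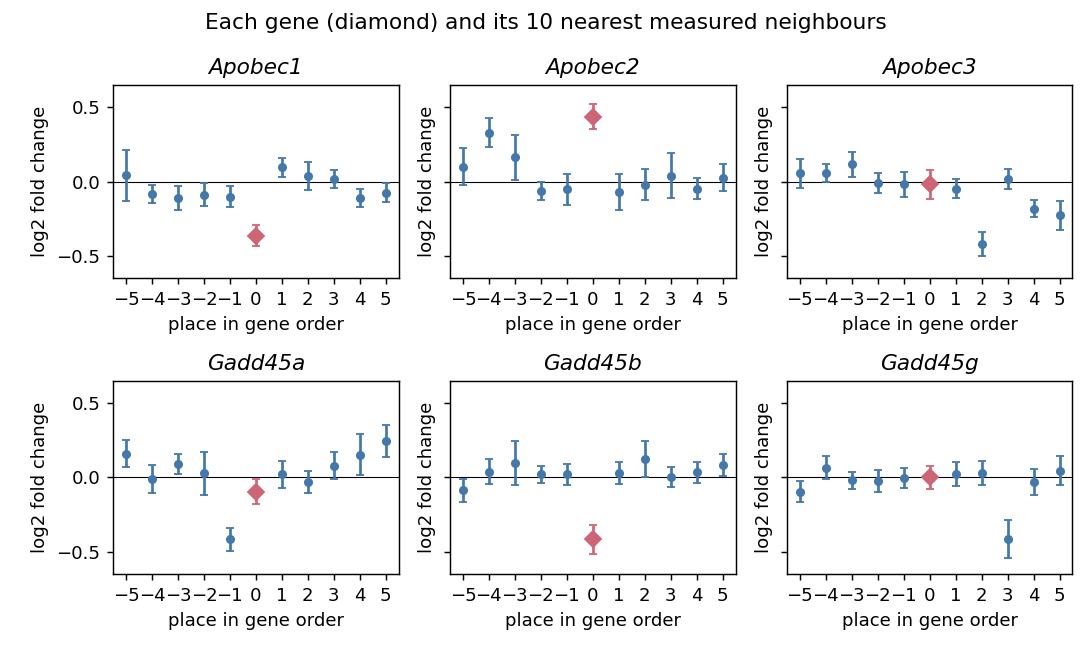
Log2 fold change ± SE (vertical axis, knockdown minus control) of each member (red diamond, place 0) and of its 5 nearest measured genes on each side in gene order (blue points; horizontal axis in places, not in bases). Apobec1, Apobec2 and Gadd45b lie outside the range of their neighbours, and near Apobec3, Gadd45a and Gadd45g a single neighbour lies near -0.4.

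The genes most like each member in pattern were ranked by Pearson correlation of log2 signals over the 6 arrays, among 10249 or 10250 other genes that ranged over at least 0.3. Over so few arrays, which the genes share, many genes correlate highly, and the ranking is a description. Nearest to Apobec1 were the ephrin gene Efna5 (r 0.999, fold change -0.73), the translation factor gene Eif4g3 (0.998, -0.31) and the desmosome gene Dsp (0.998, -0.47). Efna5 passed in limma (adjusted p 0.0443, blocked 0.0246), and Dsp passed only with the block (adjusted p 0.0575, blocked 0.0368). Nearest to Apobec2 were Rpia, of the pentose phosphate pathway (r 0.999, fold change 0.27), the splicing factor gene Plrg1 (0.999, 0.23) and Uba1y (0.998, 0.26). Nearest to Gadd45b were Vkorc1, of the vitamin K cycle (r 0.998, fold change -0.27), Mtmr11 (0.995, -0.34) and the lactate dehydrogenase gene Ldhb (0.994, -0.23). Mtmr11 passed limma's threshold only with the block (adjusted p 0.120, blocked 0.0498).

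For the 3 members whose groups overlapped, the nearest genes were as follows. Apobec3 was followed by Acadsb (r 0.999), the histone gene H1f3 (0.995) and the checkpoint gene Rad17 (0.994), all of them, like Apobec3, lowest in knockdown replicate 3 and next lowest in control replicate 3. Gadd45a was nearest to Papss1 (0.982), Gria4 (0.975) and Ccnq (0.969), each highest in knockdown replicate 2. For Gadd45g the nearest were Olfr504 (0.995), Uqcrh (0.973) and Foxa3 (0.961). Of the nearest genes of these members none had an adjusted p under 0.7 in limma.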

How the data were processed

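RNA of 3 control and 3 Tdg knockdown E14 samples was measured on Affymetrix arrays. The authors deposited normalized log2 signals for each probe set. Per the submitters' processing notes, the software was Affymetrix Expression Console, with version, summarisation and normalization not given in the sources used here. Values between 2.26 and 14.03 set the log2 scale, and no further normalization was applied. The number of arrays limits the precision.

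Of 35557 rows, 21789 list 1 gene, 1621 several and 12147 none in the platform annotation. The brightest single-gene row was kept for each of 19938 genes, with symbols updated through RefSeq (GRCm38.p6; 21698 rows matched by gene identifier). Groups were compared with limma 3.58.1 (R 4.3.3, functions lmFit and eBayes, two-sided). P-values were adjusted by Benjamini-Hochberg over all named genes, with a threshold of 0.05. The fit without a block was tested beforehand on simulated data, in 5 runs with 200 changed genes each. Their noise was drawn independently for each array, so deviations that the real arrays share were not simulated. In these simulated data the fit called 11.2% of genes changed by 0.3 and 39.6% of those changed by 0.5, so a gene without a call may still have changed.

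Equal replicate numbers deviated together (r of 0.61, 0.23 and 0.70 across genes), although control replicate 1 and knockdown replicate 2, of different numbers, had an r of 0.44, above that of the second pair. By the criterion used, r over 0.1 in every pair of equal numbers, they were treated as pairing the samples, and blocked values are given where they change a call. No label says what equal numbers share, and a blocked value is valid only for truly paired samples.

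The members and lists were chosen with earlier results of these data known. Beside the members, Tdg and Kdm2b, genes were named by rule: up to 4 called genes of a list, or else the 2 with the smallest p; all measured genes of the Apobec1 stretch; the nearest neighbours and any past the threshold; and the 3 most correlated genes. Others are said to be named after their values were seen. All 6 members had promoter windows. Alternatives were the block, quantile normalization, median centring, a filter on low genes, a trended and robust prior, the mean of a gene's rows, all rows tested, and leaving out each array.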

Additional observations from a re-analysis of the deposited data

How the results depend on the processing

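Apobec1, Apobec2 and Gadd45b kept their sign under all 13 alternatives (-0.40 to -0.31, 0.36 to 0.48 and -0.50 to -0.33), but their side of the threshold depended on the setting. With the replicate block all 3 passed, -0.36 for Apobec1, 0.44 for Apobec2 and -0.42 for Gadd45b, and so they did with a trended and robust prior, at the same fold changes (adjusted p 0.0409, 0.0415 and 0.0467). With the dimmest genes left out (a share of 0.333) 2 members passed, Apobec1 at -0.36 (adjusted p 0.0349) and Apobec2 at 0.44 (adjusted p 0.0335); fewer genes are tested there. The number of members called was thus 3, 3 and 2 in these settings and 0 in the others. With 1 array left out, log2 fold changes ran from -0.40 to -0.31 for Apobec1, 0.36 to 0.48 for Apobec2, -0.18 to -0.04 for Gadd45a, -0.50 to -0.33 for Gadd45b and -0.05 to 0.05 for Gadd45g, and none passed. Apobec3 changed sign to 0.033 with the mean of its rows and ran from -0.083 to 0.072 with 1 array left out.

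The 158 named genes called became 614 with the replicate block, 444 with the dimmest genes left out, 446 with a trended and robust prior, 12 with all rows tested, and 0 to 290 with 1 array left out. Removing the first or the second control array, or the first knockdown array, gave 0 calls in limma (unadjusted p under 0.05 in 1682, 1510 and 1959 genes); removing the third control array gave 15, the second knockdown array 4 and the third knockdown array 290. Beyond the values given beside the results, the block changed no other call of a named member. In the 6 family pairs the differences kept their sign in every setting run; Apobec1 minus Apobec2 ran from -0.85 to -0.76 and Gadd45b minus Gadd45g from -0.44 to -0.38 with 1 array left out.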
